A study of Mus musculus with 6 samples.

Results

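The interferon receptor gene cluster of mouse chromosome 16 was examined in CD8+ T cells cultured as Tc17 or as Tc1. It comprises 8 genes, which lie in the order Ifnar2, Il10rb, Ifnar1, Ifngr2, Tmem50b, Dnajc28, Gart and Son. Each gene was represented by the probe set that carries its symbol alone, and by the brightest one over all arrays where there were several, so that the 8 genes stand among 22180 genes with such a probe set. The cluster was chosen by the difference of Ifngr2 between the cultures, which was known from these same values, and the brightest probe set of Gart was selected on its mean intensity. The differences between Tc17 and Tc1 within it are therefore given as a description and support nothing further.

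The values came from 6 single-colour Affymetrix arrays. Tc17 cells had been cultured with IL-6 and TGF-beta, and Tc1 cells with IL-12. Both had started as naive CD8+ T cells sorted from spleen, both were activated with antibodies to CD3 (1 µg/ml) and CD28 (3 µg/ml) within a culture of 4 days, and both had their polarising cytokines for 3 of those days and IL-2 on the remaining 1. The labels give no strain, age or cytokine dose, and do not say whether cells of several animals were pooled. Each group had 2 arrays titled as biological replicates 1 and 2 and 1 titled as technical replicate 2. It was taken for a repeat of sample 2, because the titles share the number, and was averaged with it, which leaves 2 samples per group. The labels do not state this in words. Nothing in the labels says that the samples numbered 1 and 2 came from separate animals, so p-values measure only the spread between these samples, which may be technical. The small number of arrays limits the precision of every difference.

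Interferons and the IL-10 family signal through receptors made of paired chains of the class II cytokine receptor family. The type I interferon receptor consists of IFNAR1 and IFNAR2. Interferon-gamma binds IFNGR1, and IFNGR2 joins the complex and brings the kinase JAK2 to it. IL-10 binds IL10RA, and IL10RB is the shared second chain that also serves IL-22 and the lambda interferons. Among CD4 T cells, low IFNGR2 is a known feature of Th1 cells, which make interferon-gamma, and leaves them less responsive to that cytokine. Of the 4 other genes of the cluster, Gart encodes an enzyme of purine synthesis and Son a splicing cofactor of nuclear speckles. Dnajc28 encodes a protein of the DnaJ family and Tmem50b a small membrane protein of the secretory pathway.

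The promoters of the type I receptor chains, of Ifngr2 and of Tmem50b are shown because Ifngr2 and its neighbour Tmem50b had by far the largest differences of the 8 genes, while those of Ifnar2 and Ifnar1 were close to 0. The sequences are the 250 bases before the annotated start of each gene, 5′ to 3′ on the strand of the gene, from RefSeq on build GRCm38.p6. Capitals mark matches on either strand to the GC box (GGGCGG), the CCAAT box (CCAAT) and STAT-type repeats, in which TTC and GAA stand 3 or 4 bases apart. Adjoining or overlapping GC boxes run together.
Ifnar2, chr16:91372533-91372782, plus strand: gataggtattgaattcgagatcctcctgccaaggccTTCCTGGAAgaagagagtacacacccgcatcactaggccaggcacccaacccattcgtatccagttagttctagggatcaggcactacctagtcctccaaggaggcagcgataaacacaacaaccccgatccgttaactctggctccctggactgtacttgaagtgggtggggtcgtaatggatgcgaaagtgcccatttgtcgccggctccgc
Ifnar1, chr16:91484965-91485214, plus strand: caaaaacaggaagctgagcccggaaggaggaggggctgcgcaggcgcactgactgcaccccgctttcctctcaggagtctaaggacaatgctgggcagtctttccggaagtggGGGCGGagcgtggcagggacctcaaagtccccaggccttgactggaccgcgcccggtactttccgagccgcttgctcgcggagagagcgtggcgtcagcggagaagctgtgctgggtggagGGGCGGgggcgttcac
Ifngr2, chr16:91546809-91547058, plus strand: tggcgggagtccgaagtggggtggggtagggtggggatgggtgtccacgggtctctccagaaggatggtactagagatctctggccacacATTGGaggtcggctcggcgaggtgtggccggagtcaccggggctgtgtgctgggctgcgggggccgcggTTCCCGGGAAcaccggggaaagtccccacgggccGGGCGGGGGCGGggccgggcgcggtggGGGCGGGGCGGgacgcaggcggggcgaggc
Tmem50b, chr16:91597681-91597930, minus strand: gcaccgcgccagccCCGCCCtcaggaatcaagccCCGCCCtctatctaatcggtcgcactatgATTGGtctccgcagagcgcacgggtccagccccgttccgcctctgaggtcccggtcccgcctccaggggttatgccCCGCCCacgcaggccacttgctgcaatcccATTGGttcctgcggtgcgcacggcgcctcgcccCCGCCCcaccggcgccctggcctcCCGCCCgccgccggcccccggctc

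Ifngr2 and Tmem50b are read in opposite directions and are next to each other, so their 3′ ends face each other and their promoters lie at the outer ends of the pair. The promoters of Ifngr2 and Tmem50b had GC contents of 74.0% and 73.2%, against a median of 52.4% over 32851 promoter windows of the same length. Those of Gart, Ifnar1 and Son were also above this median, at 68.0%, 65.6% and 64.8%. Ifnar2 had 54.0% and Dnajc28 51.2%. A GC content at least as high as that of Ifngr2 was found in 4.91% of all windows. Ifngr2 and Tmem50b both hold GC boxes, which 32.7% of all windows hold, and CCAAT boxes, which 33.8% hold. Gart holds both kinds too, Ifnar1 holds GC boxes and Son CCAAT boxes, so 4 cluster genes hold each kind. The STAT-type repeat with 4 spacer bases was found from 91 to 82 bases before the start of Ifngr2 and in 5.85% of all windows. Among the 7 cluster genes with a sequence, Ifngr2 was the one that held it. The repeat with 3 spacer bases was found in the window of Ifnar2 and in 7.02% of all windows. A SMAD palindrome (GTCTAGAC), searched like the others on both strands, was found in none of the 7 and in 0.167% of all windows. The AP-1 site (TGANTCA) was found in none of the 7 and in 6.75% of all windows. For the TATA box (TATAAA) these figures were none and 12.4%. For the core of the interferon-stimulated response element, a pair of GAAA with 2 bases between them, they were none and 2.98%. A ROR half-site (AGGTCA) was found in the window of Dnajc28 and in 14% of all windows. The motifs were chosen after these sequences had been read, and a match is a run of letters and not a measured site.

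Ifngr2, the signalling chain of the interferon-gamma receptor, was 16-fold brighter in Tc17 than in Tc1. Its probe set (17327084) gave log2 RMA intensities of 11.14 (sample 1), 11.27 (sample 2) and 11.28 (its technical repeat) in Tc17, against 7.41, 6.91 and 7.10 in Tc1 in the same array order. All 3 Tc17 arrays lay far above all 3 Tc1 arrays. The group means were 11.21 ± 0.10 in Tc17 and 7.21 ± 0.28 in Tc1 (log2, SD, n = 2 each), and the difference was 4.00 ± 0.16 (log2, SE of the limma fit). It ranked 8 of 22180 genes from the highest difference down. The Tc1 mean stood above every array median (6.04 to 6.09), but no array gives a detection call, so 16-fold is a ratio of intensities. In these bulk samples a smaller share of cells with the transcript and less transcript per cell cannot be told apart.

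The type I interferon receptor chains were at similar levels in both cultures. Ifnar2 (17327038) measured 11.22, 11.34 and 11.38 in Tc17, against 11.09, 11.18 and 11.15 in Tc1, on the arrays of sample 1, sample 2 and its technical repeat. The Tc17 arrays were all slightly above the Tc1 arrays, with a difference of 0.17 ± 0.09 (log2, SE). Ifnar1 (17327069) measured 10.52, 10.68 and 10.72 in Tc17, against 10.45, 10.89 and 10.89 in Tc1. The groups overlapped, and the difference of −0.06 ± 0.17 (log2, SE) was smaller than the gap of 0.44 between the Tc1 samples. Without Tc1 sample 1 the Ifnar1 difference was −0.28, and without Tc1 sample 2 it was 0.16.

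Il10rb, the shared chain of the IL-10 and IL-22 receptors, lies between Ifnar2 and Ifnar1. Its probe set (17327054) measured 10.47, 10.69 and 10.70 in Tc17, against 10.32, 10.53 and 10.55 in Tc1, in the same array order. The groups overlapped, and in both of them sample 2 was 0.22 above sample 1 on the log2 scale. The difference between the cultures was 0.16 ± 0.13 (log2, SE).

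**Figure D1:**
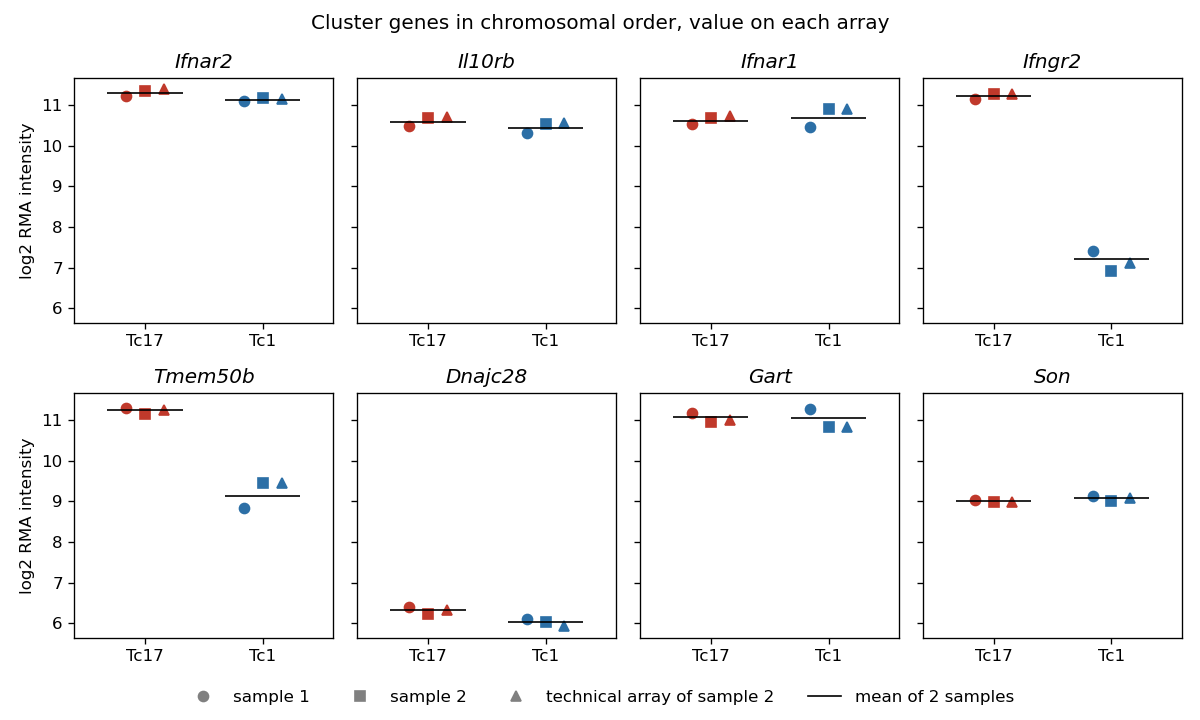
Log2 RMA intensity of the 8 cluster genes on each of the 6 arrays, with Tc17 (red) left of Tc1 (blue), a marker shape for each array and a black line at the mean of the 2 samples. Ifngr2 and Tmem50b stand apart between the groups, with differences of 4.00 and 2.11. Levels of different genes come from different probe sets and cannot be ranked against each other.

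Tmem50b, the next gene after Ifngr2, was 4.31-fold brighter in Tc17. Its probe set (17332122) measured 11.30, 11.15 and 11.24 in Tc17, against 8.83, 9.46 and 9.44 in Tc1. The Tc17 arrays were close together and all above the Tc1 arrays, among which sample 1 was the low one. The group means were 11.25 ± 0.08 in Tc17 and 9.14 ± 0.44 in Tc1 (log2, SD, n = 2 each), with a difference of 2.11 ± 0.22 (log2, SE).

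Dnajc28 (17332133) measured 6.39, 6.22 and 6.32 in Tc17, against 6.11, 6.03 and 5.92 in Tc1. These values lie near the array medians, so signal above background was not shown. The Tc17 arrays were all above the Tc1 arrays, with a difference of 0.29 ± 0.09 (log2, SE). Gart, the purine synthesis enzyme, had 3 probe sets. The one that represents it (17332140) measured 11.16, 10.96 and 10.99 in Tc17, against 11.28, 10.82 and 10.83 in Tc1. The groups overlapped and the difference was 0.02 ± 0.17 (log2, SE), and the other 2 probe sets had differences of −0.06 and 0.04. Son (17327099) measured 9.02, 8.99 and 8.99 in Tc17, against 9.13, 9.01 and 9.08 in Tc1. Its difference was −0.08 ± 0.08 (log2, SE), and the groups overlapped.

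Along the chromosome the differences did not fall off evenly on both sides of Ifngr2. The neighbour on the Ifnar1 side of Ifngr2 was at −0.06 and the neighbour on the other side at 2.11, followed by 0.29, 0.02 and −0.08. Another annotated gene of the stretch, A930006K02Rik between Il10rb and Ifnar1, averaged 6.20 in Tc17 and 6.35 in Tc1 and had a difference of −0.15 ± 0.19 (log2, SE). In the limma fit over all probe sets, Ifngr2 and Tmem50b were the 2 of the 8 cluster genes past an adjusted p of 0.05, a line passed by 1.58% of all genes and 1.01% of all probe sets. Tmem50b was past it in 10 of 12 alternative settings and not without either Tc17 sample (limma adjusted p = 0.205 without sample 1 and 0.147 without sample 2). Some of these settings could hardly change the outcome, since Tmem50b has 1 probe set and RMA had already normalized the arrays. For 4 cluster genes the array values of the cultures did not overlap, as for 29.7% of all genes. Since the contrast was known when the cluster was chosen, nothing is read from these counts.

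The samples within a group also differed, and Ifngr2 and Tmem50b did so in opposite directions. In Tc1, sample 2 differed from sample 1 by −0.40 for Ifngr2 and by 0.62 for Tmem50b on the log2 scale. A gap between the Tc1 samples of at least the size seen in Tmem50b was found in 2.34% of all probe sets, and one of at least the size seen in Ifngr2 in 7.47%. In Tc17 the gaps were 0.14 for Ifngr2 and −0.11 for Tmem50b. The median gap over all probe sets was 0.10 in Tc17 and 0.11 in Tc1. Technical and biological arrays of sample 2 differed by 0.20 for Ifngr2 in Tc1, and after rounding by 0.10 or less, up or down, for the other probe sets that represent the 8 genes and for Ifngr2 in Tc17.

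The genes around the cluster were measured in the same fit. Of the 10 nearest genes with a probe set on each side, 2 rose in Tc17 and none fell, against 0.992% of all genes that rose. Both lie on the Ifnar2 side and are neighbours of each other. Paxbp1, which encodes a protein that binds PAX transcription factors, measured 9.76, 9.90 and 9.97 in Tc17, against 8.84, 8.93 and 8.89 in Tc1. All Tc17 arrays lay above all Tc1 arrays, and the gene was 1.96-fold higher in Tc17 (log2 difference 0.97 ± 0.09 SE, limma adjusted p = 0.0328).

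The gene listed as 4932438H23Rik measured 7.81, 7.79 and 7.97 in Tc17, against 6.75, 6.60 and 6.72 in Tc1. It was 2.21-fold higher in Tc17 (log2 difference 1.14 ± 0.08 SE, limma adjusted p = 0.0161), and its dimmer second probe set had a difference of 0.35. Neither gene passed when any 1 sample was left out (limma adjusted p = 0.085 to 0.157), while their differences stayed between 0.89 and 1.19. Between this pair and the cluster lie Olig2 and Olig1, transcription factor genes of the oligodendrocyte lineage. They had differences of −0.06 and −0.11 and did not pass.

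On the Son side no gene passed. Gm10785, an lncRNA gene, averaged 7.25 in Tc17 and 6.78 in Tc1 and had a log2 difference of 0.47 (limma adjusted p = 0.257). Atp5o, a subunit gene of mitochondrial ATP synthase, averaged 7.06 in Tc17 and 7.37 in Tc1 and had a difference of −0.31 (limma adjusted p = 0.518). Donson, the next gene after Son, had a difference of −0.16. The median over the 20 flanking genes was −0.02, against −0.01 over all genes, and 6 of the 20 lay below every array median in both cultures.

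**Figure D2:**
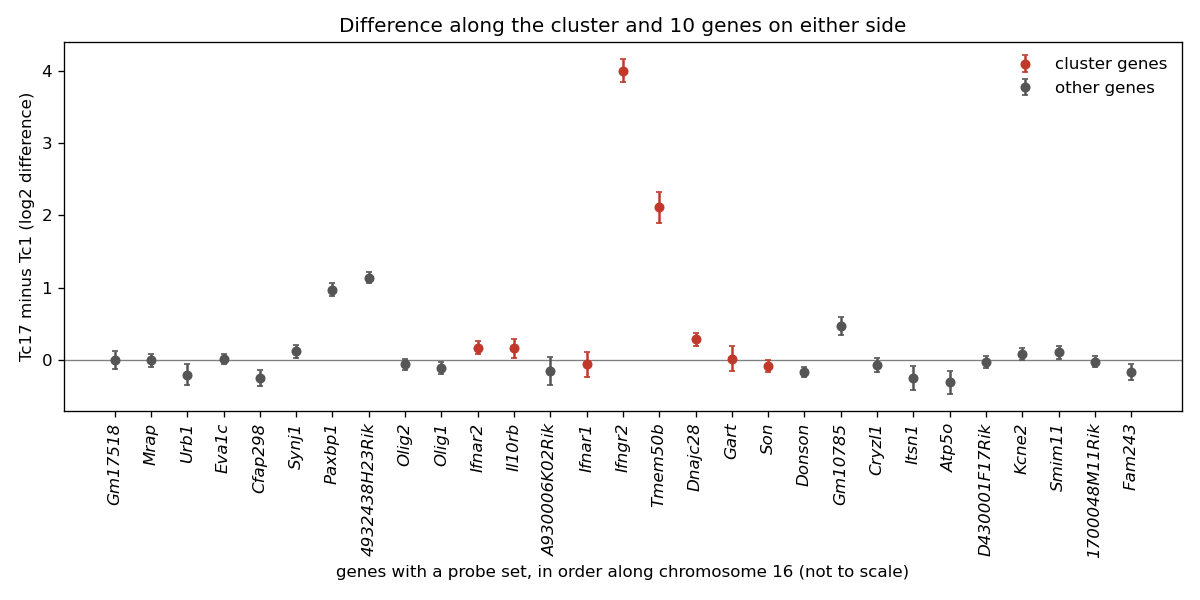
Log2 difference, Tc17 minus Tc1, for the 8 cluster genes (red), A930006K02Rik and 10 genes on either side (grey), in order along chromosome 16 and not to scale. Bars are the SE of the limma fit on 2 samples per group. Ifngr2 (4.00) and Tmem50b (2.11) adjoin, and Paxbp1 (0.97) and 4932438H23Rik (1.14) form a separate pair.

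Outside the cluster the other chains of the class II receptor family did not pass in either direction, 0 of 8 measured, against 1.58% of all genes that passed, a share too small for 0 of 8 to stand apart from it. An unadjusted p under 0.05 in the limma fit was found for 1 of the 8 chains, Il10ra, and for 15.9% of all genes. Ifngr1, the ligand-binding partner of IFNGR2, averaged 12.58 ± 0.16 in Tc17 and 12.74 ± 0.09 in Tc1 (log2, SD, n = 2 each), a difference of −0.16 ± 0.11 SE (limma adjusted p = 0.642). The array values of the 2 cultures overlapped. Il10ra, the ligand-binding chain of the IL-10 receptor, averaged 9.29 ± 0.04 in Tc17 and 10.30 ± 0.33 in Tc1. Its difference was −1.02 ± 0.17 SE, with all Tc17 arrays below all Tc1 arrays, and did not pass (limma adjusted p = 0.106).

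The remaining chains were Ifnlr1 (lambda interferons), Il20ra, Il20rb, Il22ra1, the decoy receptor Il22ra2 and F3, which encodes tissue factor. Ifnlr1, Il20ra, Il22ra1 and Il22ra2 lay below every array median in both cultures, with differences of 0.00, −0.03, −0.11 and 0.06. Il20rb averaged 6.02 in Tc17 and 6.05 in Tc1, close to the array medians. F3 averaged 7.92 ± 0.50 in Tc17 and 7.24 ± 1.15 in Tc1. Its spread in Tc1 was wider than its difference of 0.68 (limma adjusted p = 0.715), which was −0.13 without Tc1 sample 2. The median difference of the 8 chains was −0.03.

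Of 11 measured ligands of these receptors, 1 fell in Tc17 and none rose, against 0.591% of all genes that fell. That gene was Ifng, the ligand of the receptor to which IFNGR2 belongs, which averaged 7.51 ± 0.40 in Tc17 and 13.00 ± 0.25 in Tc1 (log2, SD, n = 2 each; limma adjusted p = 0.0056). Ifng was dim where Ifngr2 was bright, in Tc17, and bright where Ifngr2 was dim, in Tc1. Il10 averaged 9.50 ± 0.22 in Tc17 and 11.30 ± 0.42 in Tc1, a difference of −1.81 ± 0.23 SE that did not pass (limma adjusted p = 0.0625). Ifnb1, Ifna2, Ifnk, Ifne and Il22 lay below every array median in both cultures. Ifna2 had a difference of −0.12, and the alpha interferon genes are near-identical copies whose probes may not tell them apart. The median over the 11 ligands was −0.02.

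Signalling genes downstream of the cluster receptors had no common direction, with 6 of 12 measured differences above 0 and a median of 0.05. Irf1, a transcription factor gene induced by interferon-gamma, was 2.25-fold lower in Tc17 and was the 1 gene of the 12 that passed (log2 difference −1.17 ± 0.11 SE, limma adjusted p = 0.0296). Of all genes 0.591% fell and 0.992% rose. It did not pass when any 1 sample was left out (limma adjusted p = 0.0942 to 0.148). Usp18, which encodes a protein that dampens IFNAR2 signalling, averaged 6.88 ± 0.90 in Tc17 and 10.52 ± 0.65 in Tc1. Its difference of −3.64 ± 0.52 SE did not pass (limma adjusted p = 0.0755). Socs3, a feedback inhibitor gene, averaged 9.67 ± 0.19 in Tc17 and 9.00 ± 0.22 in Tc1 and did not pass (limma adjusted p = 0.185). Its second probe set had a difference of 0.29, against 0.67 for the first. Stat3 and Socs1, also higher in Tc17, had differences of 0.50 ± 0.07 and 0.60 ± 0.12 (log2, SE). Neither passed (limma adjusted p = 0.0802 and 0.145), and all Tc17 arrays of each lay above all Tc1 arrays. An unadjusted p under 0.05 in the limma fit was found for Irf1, Usp18, Stat3, Socs1, Socs3 and Jak2, and for 15.9% of all genes. Of these, Irf1 and Usp18 were lower in Tc17 and the others higher.

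The kinases that the receptor chains carry had differences of −0.08 for Jak1, 0.36 for Jak2 and −0.12 for Tyk2, none of which passed. For Jak2 all Tc17 arrays lay above all Tc1 arrays, and 29.7% of all genes had groups that did not overlap. The arrays of Jak1 and of Tyk2 overlapped.

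Genes that share a process with Gart or with Son were measured as well. None of 8 purine synthesis genes passed. Their differences ran from −0.21 for Impdh1 to 0.18 for Adss, with a median of −0.11. None of 11 splicing genes passed either, and their differences ran from −0.13 to 0.20, with a median of 0.08. Of all genes 1.58% passed, a share too small for either count to stand apart from it. Srsf3 was at 0.20 and Tra2a at 0.17. In these 2 lists 1 gene, Impdh1, had an unadjusted p under 0.05 in the limma fit, as did 15.9% of all genes.

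**Figure D3:**
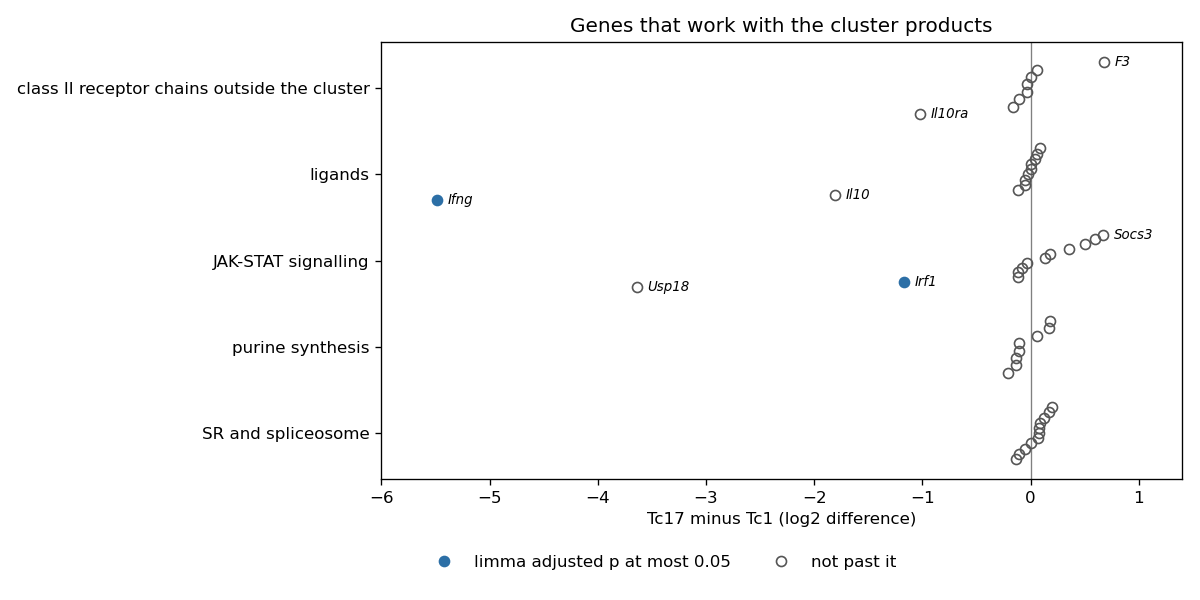
Log2 difference, Tc17 minus Tc1, for the measured genes of 5 lists, 1 circle per gene, filled where the limma adjusted p was at most 0.05. Ifng (−5.49) and Irf1 (−1.17) are the filled circles, and the splicing and purine synthesis genes lie between −0.21 and 0.20.

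The genes whose profile over the 6 arrays was most like that of Ifngr2 were Foxp3, Gpr15, Slc15a1, Igfbp4 and Pdpn. Likeness was the Euclidean distance between profiles centred on their own mean, over 6 arrays that stand for 4 samples. The distances were 0.44, 0.68, 0.69, 0.69 and 0.80 on the log2 scale, and Tmem50b stood at 2.72. Foxp3, which specifies regulatory T cells, measured 10.73, 10.70 and 11.00 in Tc17, against 6.92, 6.88 and 6.64 in Tc1. Igfbp4, which encodes a binding protein of insulin-like growth factors, averaged 11.44 ± 0.05 in Tc17 and 7.96 ± 0.40 in Tc1. The 5 genes had differences from 3.48 (Igfbp4) to 3.95 (Foxp3), as the measure requires.

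**Figure D4:**
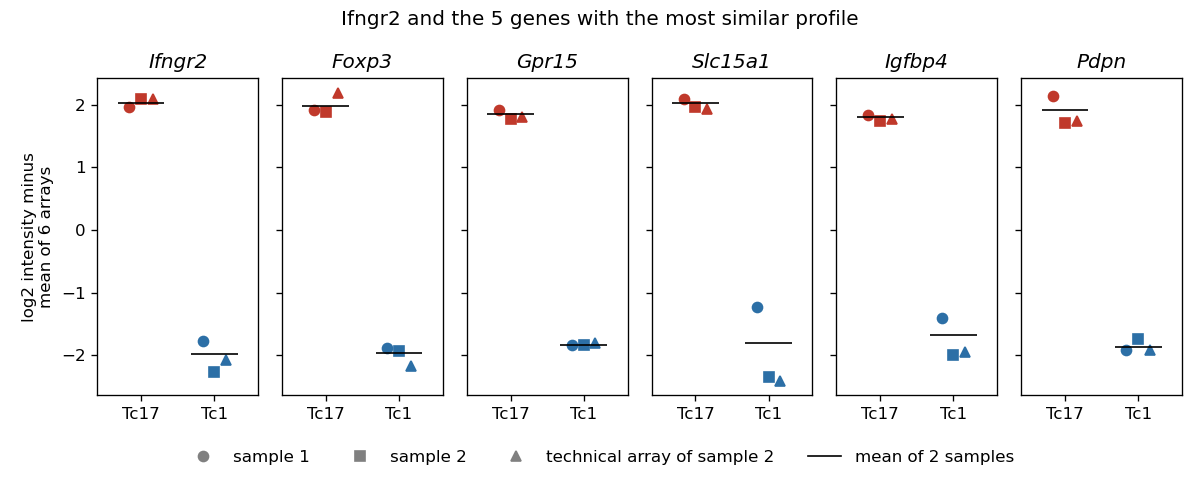
Log2 intensity minus the mean of the 6 arrays for Ifngr2 and the 5 genes nearest to it, with Tc17 (red) left of Tc1 (blue) and a black line at the mean of the 2 samples. Slc15a1 and Igfbp4 share with Ifngr2 a higher Tc1 sample 1, while Gpr15 (5.15, 5.16 and 5.18 in Tc1) does not.

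The labelled cell type was visible in both cultures. The CD8 chain genes Cd8a and Cd8b1 and the general T cell markers Cd3e, Cd3d and Cd3g all lay above every array median. The summed linear intensity of these 5 genes was 32528 to 34266 in Tc17 and 32738 to 34370 in Tc1. Natural killer and dendritic cell markers lay below every array median in both cultures, 2 of 2 and 4 of 4, with sums of 49 and 186 to 195 in Tc17 and of 48 to 49 and 185 to 192 in Tc1. Cd4 lay above every array median in both cultures, with means of 6.99 in Tc17 and 7.05 in Tc1 and a difference of −0.06. The 5 macrophage and monocyte markers summed to 1498 to 1708 in Tc17 and 1013 to 1434 in Tc1. Lyz2 rose among them (8.97 in Tc17 and 5.44 in Tc1, limma adjusted p = 0.00594) and the other 4 did not pass. Csf1r, Adgre1 and Cd14 had log2 differences of 0.28, 0.38 and 0.25, each with all Tc17 arrays above all Tc1 arrays. Groups that did not overlap, in either direction, were found for 29.7% of all genes. Cd68 had a difference of −0.14 with overlapping arrays. Cd14 and Adgre1 lay below every array median in both cultures. The 3 measured B cell markers summed to 1298 to 1427 in Tc17 and 918 to 1042 in Tc1. Nearly all of that was Cd79b, which averaged 10.32 in Tc17 and 9.80 in Tc1. The part of these markers in the differences above was not tested.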

How the data were processed

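Total RNA of the cultures was hybridised to Affymetrix arrays. The authors deposited log2 intensities of 41345 probe sets. The submitters' processing notes name RMA and Partek, without versions. RMA normalizes between arrays by quantiles, so differences are relative to the whole array. The genome build and annotation used by the authors are not given in the sources used here.

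In the platform annotation 23521 probe sets carry 1 symbol, 1814 several and 16010 none. The technical array was averaged with sample 2. Differences (Tc17 minus Tc1) were fitted with limma 3.58.1 in R 4.3.3 (lmFit, eBayes) over all probe sets, with Benjamini-Hochberg adjustment, and genes at an adjusted p of 0.05 or less passed. Residual degrees of freedom were 2, and moderation added 2.63. No probe set was filtered. Gene order and promoters came from RefSeq (GRCm38.p6), where 7 of the 8 cluster genes had a promoter.

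The members, the lists, the markers and the motifs were chosen with earlier results of these data known. Named genes outside the cluster were those past the threshold in each list, the 2 largest other differences, all class II receptor chains and the 5 profiles nearest to Ifngr2, passing over provisional symbols for the last. Some others (Olig1, Olig2, Donson and the kinases) were named for their position or role after their values were seen. Stat3 and Socs1 were named for their unadjusted p. Alternatives were the technical array left out or counted as a sample, a replicate block, quantile normalization, median centring, trend and robust moderation, a filter on level, averaging probe sets per gene and each sample left out. Figures used matplotlib 3.10.9 and pandas 2.3.3.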

Additional observations from a re-analysis of the deposited data

How the results depend on the processing

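The difference of Ifngr2 lay between 3.80 and 4.20 and that of Tmem50b between 1.80 and 2.42 over the 12 alternatives. Cluster genes past the threshold numbered 2, and 1 to 2 with a sample left out. Over all probe sets 263 were called higher and 155 lower; 6 arrays as separate samples gave 1364 and 954, the replicate block 932 and 603, a filter on level 396 and 252, and leaving out a sample 29 to 84 and 19 to 52. Same-numbered samples deviated together (r = 0.313 over probe sets), but 2 numbers do not establish pairing. In the signalling list 0 were higher and 1 lower; 6 separate arrays gave 3 and 2, the replicate block 2 and 2, trend and robust moderation 1 higher, the filter 2 lower, and a sample left out 0 lower. Among receptor chains 1 was lower with separate arrays and 1 with the block, against 0; among ligands 2 were lower with separate arrays, 2 with the block and 2 with the filter, against 1. Usp18, Socs3, Il10ra and Il10 did not pass in the reported fit and passed with the block (limma adjusted p = 0.001, 0.0239, 0.024 and 0.0247). Flanking genes higher numbered 0 with any sample left out. List medians with a sample left out ran from −0.06 to −0.00 (flanking), −0.08 to 0.18 (signalling), −0.08 to −0.01 (receptor chains; −0.16 with the filter), −0.08 to 0.04 (ligands), −0.08 to 0.02 (purine synthesis) and −0.02 to 0.10 (splicing; 0.04 after quantile normalization). F3 had −0.13 without Tc1 sample 2 and 1.49 without Tc1 sample 1. The filter tests fewer probe sets and separate arrays count a technical repeat as a sample; other causes were not tested. Signal over background could not be judged for any dim probe set.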

Other observations

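Neighbouring genes that were both at least 4-fold brighter in Tc17 were counted along all chromosomes. Of 22139 genes placed along the chromosomes, 78 were at least 4-fold brighter, and 10 of these had a neighbour among genes with a probe set that was too. They formed 5 of 22116 neighbouring pairs: Il17a with Il17f, Cd86 with Ildr1, Ifngr2 with Tmem50b, Cd101 with Ptgfrn, and Tmem176b with Tmem176a. Il17a and Il17f encode related IL-17 cytokines and had differences of 5.21 and 6.09 (log2). Tmem176b and Tmem176a encode related membrane proteins and had differences of 2.68 and 2.38. Cd101 and Ptgfrn encode related proteins of an immunoglobulin family and had differences of 3.42 and 2.63. Cd86, a ligand of CD28, and Ildr1 also lie on chromosome 16 and had differences of 2.96 and 2.84. This count was made after the pair of Ifngr2 and Tmem50b had been seen and is a description.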
